A study of Mus musculus with 24 samples.

Results

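Immune checkpoints are pairs of ligands and receptors that restrain T cells, and regulatory T cells use several of them to suppress other lymphocytes. The 10 genes described here were chosen by name: the ligand genes Cd274 (PD-L1) and Pdcd1lg2 (PD-L2), the receptor genes Pdcd1 (PD-1), Ctla4, Icos, Lag3, Havcr2 (TIM-3) and Tigit, the transcription factor gene Foxp3, and the cytokine gene Il10. Each was matched by symbol to 1 row of the count tables, so that the set held 10 of 27180 rows. Reads per gene had been counted in 24 RNA-seq libraries of mouse ear skin in 8 groups of 3. Ear skin of 8-week-old mice came from K14E7 animals (called E7 here) and from C57BL/6 controls (called C57). In K14E7 mice the keratin 14 promoter drives the E7 oncoprotein of human papillomavirus 16 in the basal keratinocytes of the epidermis. The other 6 groups were ear skin grafts on C57BL/6 recipients, taken 14 or 28 days after grafting from CD1dKOxE7, E7 or C57 donors. CD1dKOxE7 donors carried the K14E7 transgene and lacked CD1d, the molecule that presents lipids to natural killer T cells, whereas every recipient had an intact Cd1d gene, so that cells entering any graft could carry CD1d and no E7. The age of the graft donors is not given in the sources used here. Nothing in the labels says that replicates came from separate animals, so that p-values measure the spread between these libraries.

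PD-L1 and PD-L2 on tissue or antigen-presenting cells engage PD-1 on activated T cells and dampen signalling through the antigen receptor. CTLA-4 competes with the activating receptor CD28 for the ligands CD80 and CD86, and ICOS is a related receptor that activates. LAG-3, TIM-3 and TIGIT are further inhibitory receptors, Foxp3 sets the identity of regulatory T cells, and interleukin-10 is an inhibitory cytokine that these and other cells secrete. In skin, regulatory T cells are common among CD4+ T cells and carry much CTLA-4 and ICOS, while PD-L1 can be induced in keratinocytes by interferon-gamma.

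Promoter sequence is shown for the 4 members whose RefSeq windows held no annotated exon before the start and whose first bases after it were also in an annotated transcript; all 4 were among the genes higher in CD1dKOxE7 grafts at day 14. Each line gives the 250 bases before the transcription start, 5′ to 3′ on the gene's own strand, from RefSeq on build GRCm38.p6: Ctla4 from chr1:60908775-60909024 on the plus strand, Pdcd1 from chr1:94052554-94052803 on the minus strand, Pdcd1lg2 from chr19:29410669-29410918 on the plus strand and Havcr2 from chr11:46454681-46454930 on the plus strand. Capitals mark the core letters GGAAA, or TTTCC on the other strand, of sites for NFAT, the factor that antigen receptor signalling activates.
Ctla4: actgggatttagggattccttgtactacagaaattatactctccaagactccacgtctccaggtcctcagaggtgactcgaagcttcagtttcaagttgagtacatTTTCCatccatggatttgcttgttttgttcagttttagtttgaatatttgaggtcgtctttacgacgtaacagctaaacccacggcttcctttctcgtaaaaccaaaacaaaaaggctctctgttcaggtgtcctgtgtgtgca
Pdcd1: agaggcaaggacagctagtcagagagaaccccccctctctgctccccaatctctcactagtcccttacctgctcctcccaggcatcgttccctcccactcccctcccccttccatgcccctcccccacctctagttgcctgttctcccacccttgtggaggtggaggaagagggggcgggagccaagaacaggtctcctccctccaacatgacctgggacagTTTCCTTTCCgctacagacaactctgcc
Pdcd1lg2: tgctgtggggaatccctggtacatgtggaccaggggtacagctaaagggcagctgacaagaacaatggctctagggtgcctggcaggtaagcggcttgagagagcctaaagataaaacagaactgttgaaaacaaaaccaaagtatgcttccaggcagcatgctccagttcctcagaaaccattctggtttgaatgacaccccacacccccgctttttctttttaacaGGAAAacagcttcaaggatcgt
Havcr2: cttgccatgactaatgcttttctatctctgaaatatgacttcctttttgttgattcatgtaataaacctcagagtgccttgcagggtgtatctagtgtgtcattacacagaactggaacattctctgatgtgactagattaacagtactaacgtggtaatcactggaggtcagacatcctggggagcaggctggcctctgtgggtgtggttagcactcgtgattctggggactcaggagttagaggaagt
The core lay 144 bases before the start of Ctla4, 28 and 23 bases before that of Pdcd1, where the 2 copies adjoin, and 22 bases before that of Pdcd1lg2, and it was not in the window of Havcr2. RefSeq promoter windows were at hand for 7 of the 10 members. Tigit, Cd274 and Foxp3, whose sequences are not shown, also held the core, while Lag3, Icos and Il10 had no window in the table. These 5 letters occurred in 55.6% of 32851 mouse promoter windows, searched on both strands. The pattern of interferon regulatory factors, GAAA followed after 2 bases of any kind by GAAA, was in none of the members' windows and in 2.98% of all windows. TTCNNNGAA, the pattern of STAT factors, was in 7.02% of all windows and, among the members, in 1 of 2 Foxp3 windows, where it overlapped the NFAT core. A match is a run of letters, not a measured site.

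Levels are given as counts-per-million values (CPM), scaled by trimmed mean of M values over all 24 libraries, and each library held 6550011 to 13814448 counts. Differences were tested with edgeR's quasi-likelihood F test, and a gene passed at a Benjamini-Hochberg adjusted p under 0.05 over all genes tested. The E7 transgene had 0 to 2 counts in libraries from C57 skin and 141 to 594 in those labelled with E7. Cd1d1 had 13.3, 17.5 and 11.0 CPM before scaling in CD1dKOxE7 grafts at day 14, against 14.3, 13.1 and 16.2 in E7 grafts. At day 28 it had 5.30, 4.39 and 14.8 in CD1dKOxE7 grafts, against 26.7, 22.0 and 23.2 in E7 grafts. The deleted stretch of the gene is not given in the sources used here and recipient cells carry Cd1d, so these counts do not check the label. The name CD1dKOxE7 therefore stands for the grafts so labelled. The labels' library codes were read here as flow cell and lane. On that reading, CD1dKOxE7 grafts were sequenced on another lane than the E7 and C57 grafts, and ears on another flow cell than grafts. Lane and CD1dKOxE7 genotype, and flow cell and grafting, then cannot be told apart. Replicate 3 of the CD1dKOxE7 grafts at day 28 stood apart: 16 T cell marker genes summed to 456 CPM there, against 264 and 235 CPM (replicates 1 and 2). Keratinocyte markers were high in every library, at 24179 CPM summed or more. Every T cell marker had counts in all 24 libraries except Cd8b1, at 0 in 2 of them.

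In ear skin, 7 of the 9 members tested were higher in E7 than in C57 ears and none was lower, where 32.6% of all genes tested were higher and 32.7% lower. The 7 were both PD-1 ligands, Ctla4, Icos, Tigit, Foxp3 and Il10. Lag3 and Havcr2 did not pass, and Pdcd1 was too low to be tested. In E7 grafts, 3 of 10 members were higher and 1 lower than in C57 grafts at day 14 (15.8% of all genes higher, 14.4% lower). At day 28, 6 of 10 were higher and none lower (20.7% higher, 14.7% lower). In CD1dKOxE7 grafts at day 14, all 10 were higher than in E7 grafts, where 15.1% of all genes were higher. At day 28, 1 of 10, Icos, was higher than in E7 grafts, where 0.210% of all genes differed in either direction. At an unadjusted p under 0.05 there were 8 members, a threshold at which the share of all genes was not counted. The E7 grafts served both as the group set against C57 grafts and as the group CD1dKOxE7 grafts were set against, so these comparisons share libraries.

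**Figure D1:**
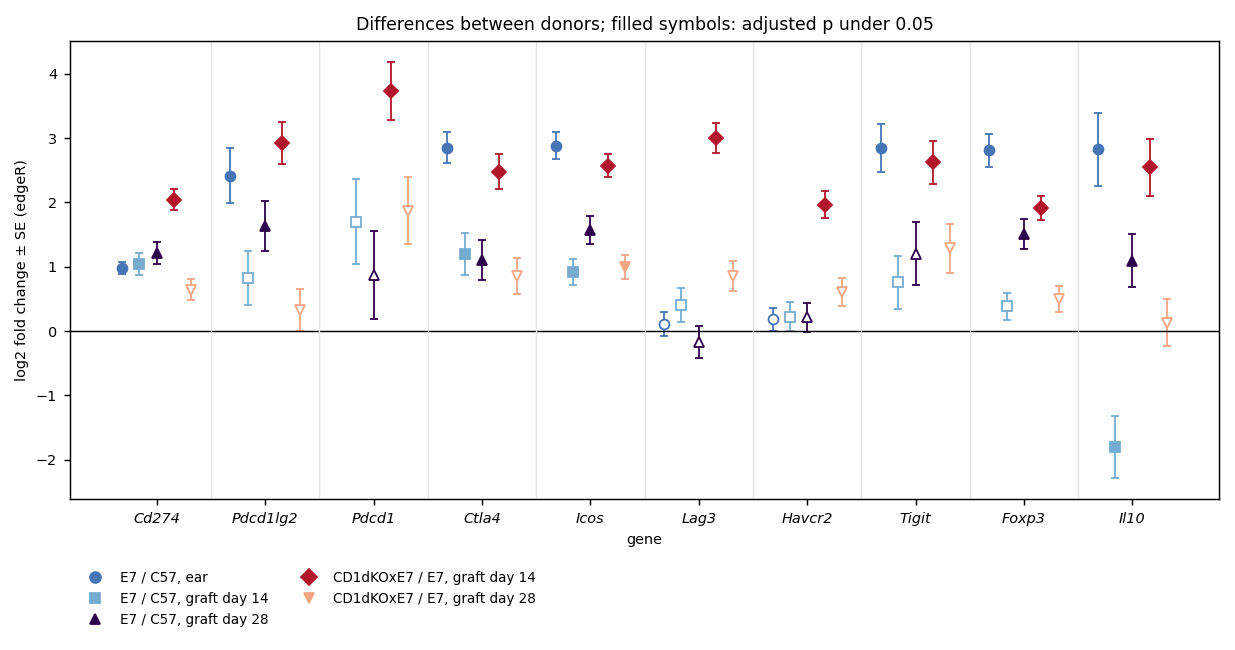
Log2 fold change (vertical axis) of each of the 10 genes (horizontal axis), by edgeR, in ears and in grafts at days 14 and 28, with bars of 1 SE and filled symbols for an adjusted p under 0.05; Pdcd1 has no symbol for ears. All 10 genes lie above 0 with filled symbols in CD1dKOxE7 against E7 grafts at day 14, and the symbols of Lag3 and Havcr2 for E7 against C57 skin are all open.

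Cd274 (Entrez gene 60533; chromosome 19, 29362107 to 29388095, plus strand, build GRCm38) encodes PD-L1, which keratinocytes, macrophages, dendritic cells and T cells can all display. Its level in ears was 31.6, 30.3 and 35.7 CPM in E7, against 16.8, 17.4 and 15.3 CPM in C57. All E7 ears lay above all C57 ears, by 1.97-fold (log2 0.98 ± 0.10, adjusted p = 6.23e-06). At day 14 it was 129, 151 and 187 CPM in CD1dKOxE7 grafts, 32.7, 32.6 and 46.5 CPM in grafts of E7 donors and 16.2, 18.2 and 20.6 CPM in grafts from C57 donors. The 3 groups did not overlap: CD1dKOxE7 grafts were 4.13-fold above E7 grafts (log2 2.05 ± 0.16, adjusted p = 1.66e-06), and E7 grafts 2.05-fold above C57 grafts (log2 1.04 ± 0.17, adjusted p = 0.000557). Grafts at day 28 had 73.5, 65.0 and 79.5 CPM when labelled CD1dKOxE7, 51.1, 43.5 and 43.3 CPM when E7 and 21.0, 16.5 and 22.6 CPM when C57. Groups again lay in that order without overlap, and E7 grafts were 2.32-fold above C57 grafts (log2 1.21 ± 0.17, adjusted p = 8.02e-05). The difference between CD1dKOxE7 and E7 grafts at day 28, log2 0.65 ± 0.16, did not pass with edgeR (adjusted p = 0.0995) and passed with DESeq2 (adjusted p = 0.0170). An exact 3-against-3 permutation test of 1 gene could not go below p = 0.1. Markers of keratinocytes differed between the same groups: their sum was 46524 to 52892 CPM in E7 ears, against 24179 to 27176 CPM in C57 ears. Of these markers 5 of 6 were higher in E7 ears (32.6% of all genes higher). At day 14 the sum was 25963 to 39449.7 CPM in CD1dKOxE7 grafts, 54854 to 95394 CPM in E7 grafts and 37485 to 45047 CPM in C57 grafts, so that CD1dKOxE7 grafts, highest in Cd274, lay below E7 grafts. Day 28 sums were 33424 to 55706 CPM in CD1dKOxE7 grafts, 44084 to 50373 CPM in E7 grafts and 26889 to 30416 CPM in C57 grafts. The part of keratinocyte content in the Cd274 differences was not tested.

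Pdcd1lg2 (Entrez gene 58205; chromosome 19, 29410919 to 29472927, plus strand) encodes PD-L2, the second ligand of PD-1, found mainly on dendritic cells and macrophages. It starts 22.8 kb after the end of Cd274. Its level in ears was 2.79, 2.14 and 5.11 CPM in E7, against 0.980, 0.525 and 0.406 CPM in C57. The ears did not overlap, and E7 ears were 5.33-fold higher (log2 2.41 ± 0.43, adjusted p = 0.000579). Grafts at day 14 had 12.9, 14.0 and 17.2 CPM when labelled CD1dKOxE7, 1.59, 1.53 and 2.53 CPM when E7 and 0.884, 0.730 and 1.55 CPM when C57. CD1dKOxE7 grafts were 7.61-fold above E7 grafts (log2 2.93 ± 0.33, adjusted p = 1.35e-05), whereas E7 and C57 grafts overlapped (log2 0.83 ± 0.42, adjusted p = 0.148). Day 28 values were 4.24, 2.87 and 6.13 CPM in CD1dKOxE7 grafts, 3.35, 4.23 and 2.87 CPM in grafts from E7 donors and 1.34, 0.419 and 1.53 CPM in those from C57 donors. CD1dKOxE7 and E7 grafts overlapped (log2 0.33 ± 0.33, adjusted p = 0.720), and E7 grafts were 3.10-fold above C57 grafts (log2 1.63 ± 0.39, adjusted p = 0.00434).

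Pdcd1 (Entrez gene 18566; chromosome 1, 94038305 to 94052553, minus strand) encodes PD-1, the receptor of both ligands on activated T cells. It reached 10 counts in 9 of 24 libraries, the fewest of the members. In ears it had 8, 7 and 9 counts in E7, against 1, 2 and 4 counts in C57, which is 0.769, 0.682 and 0.852 CPM against 0.0817, 0.150 and 0.271 CPM. The E7 ears lay above the C57 ears, but the gene fell below the count filter of that fit. Day 14 values were 29.1, 22.4 and 34.9 CPM in CD1dKOxE7 grafts, 1.43, 3.40 and 1.38 CPM in grafts from E7 donors and 0.379, 0.730 and 0.835 CPM in those from C57 donors. CD1dKOxE7 grafts stood clear of all others, 13.3-fold above E7 grafts (log2 3.74 ± 0.45, adjusted p = 2.66e-05), the largest fold among the members in that comparison. E7 grafts lay above C57 grafts by log2 1.70 ± 0.66, which did not pass with edgeR (adjusted p = 0.0641). It did pass with DESeq2 (adjusted p = 0.0262), with replicate number as a block (adjusted p = 0.0430) and when the fit held the E7 and C57 grafts of that day alone (adjusted p = 0.0477). At day 28 it was 4.46, 1.83 and 9.20 CPM in CD1dKOxE7 grafts, 0.993, 0.845 and 2.25 CPM in grafts of E7 donors and 0.626, 0.839 and 0.837 CPM in grafts from C57 donors. The CD1dKOxE7 libraries were spread over a wide range and overlapped the E7 grafts (log2 1.87 ± 0.52, adjusted p = 0.146). That difference passed with DESeq2 (adjusted p = 0.0383) and without CD1dKOxE7 replicate 2 (adjusted p = 0.0410). E7 and C57 grafts at day 28 differed by log2 0.88 ± 0.68 (adjusted p = 0.332).

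Ctla4 (Entrez gene 12477; chromosome 1, 60909025 to 60915832, plus strand) encodes CTLA-4, which regulatory T cells carry at all times and other T cells on activation. Ears had 7.31, 10.7 and 11.6 CPM in E7, against 1.39, 1.05 and 1.62 CPM in C57. E7 ears were 7.23-fold higher with no overlap (log2 2.85 ± 0.24, adjusted p = 1.83e-06). At day 14 it was 44.9, 30.9 and 30.2 CPM in CD1dKOxE7 grafts, 6.82, 5.15 and 7.00 CPM in grafts of E7 donors and 1.77, 2.63 and 3.82 CPM in grafts from C57 donors. The 3 groups lay apart, with CD1dKOxE7 grafts 5.57-fold above E7 grafts (log2 2.48 ± 0.27, adjusted p = 1.17e-05). E7 grafts were 2.30-fold above C57 grafts (log2 1.20 ± 0.32, adjusted p = 0.0122), a call that was lost without C57 replicate 1 (adjusted p = 0.0532). Grafts at day 28 had 12.1, 7.05 and 16.9 CPM when labelled CD1dKOxE7, 5.71, 6.76 and 7.24 CPM when E7 and 2.86, 3.49 and 2.93 CPM when C57. CD1dKOxE7 and E7 grafts overlapped (log2 0.86 ± 0.28, adjusted p = 0.207), while all E7 grafts lay above all C57 grafts. That 2.15-fold difference passed (log2 1.11 ± 0.32, adjusted p = 0.0134), but not without C57 replicate 1 (adjusted p = 0.0521).

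Icos (Entrez gene 54167; chromosome 1, 60960773 to 61000322, plus strand) encodes the activating receptor ICOS of T cells, which is high on skin regulatory T cells, and lies 44.9 kb beyond Ctla4. Ears had 10.7, 14.2 and 16.9 CPM in E7, against 2.12, 1.95 and 1.62 CPM in C57. E7 ears were 7.36-fold higher without overlap (log2 2.88 ± 0.21, adjusted p = 6.23e-07). Grafts at day 14 had 74.1, 56.1 and 65.3 CPM when labelled CD1dKOxE7, 10.3, 9.54 and 12.6 CPM when E7 and 5.05, 5.25 and 7.04 CPM when C57. CD1dKOxE7 grafts were 5.96-fold above E7 grafts (log2 2.58 ± 0.18, adjusted p = 1.2e-06), and E7 grafts 1.88-fold above C57 grafts (log2 0.91 ± 0.20, adjusted p = 0.00403). Day 28 values were 17.4, 14.1 and 24.8 CPM in CD1dKOxE7 grafts, 8.93, 9.72 and 9.12 CPM in grafts from E7 donors and 3.58, 2.94 and 2.79 CPM in those from C57 donors. The 3 groups again lay apart in that order, and E7 grafts were 2.97-fold above C57 grafts (log2 1.57 ± 0.22, adjusted p = 8.28e-05). Icos was the member that passed between CD1dKOxE7 and E7 grafts at day 28, 2.00-fold higher (log2 1.00 ± 0.19, adjusted p = 0.0348). Without CD1dKOxE7 replicate 3, the library with the most T cell marker counts, it was higher by log2 0.77 (adjusted p = 0.0296). The call was lost without E7 replicate 1, 2 or 3 (adjusted p = 0.159, 0.138 and 0.112), without CD1dKOxE7 replicate 1 (adjusted p = 0.123) and when the fit held the groups of that day alone (adjusted p = 0.257).

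**Figure D2:**
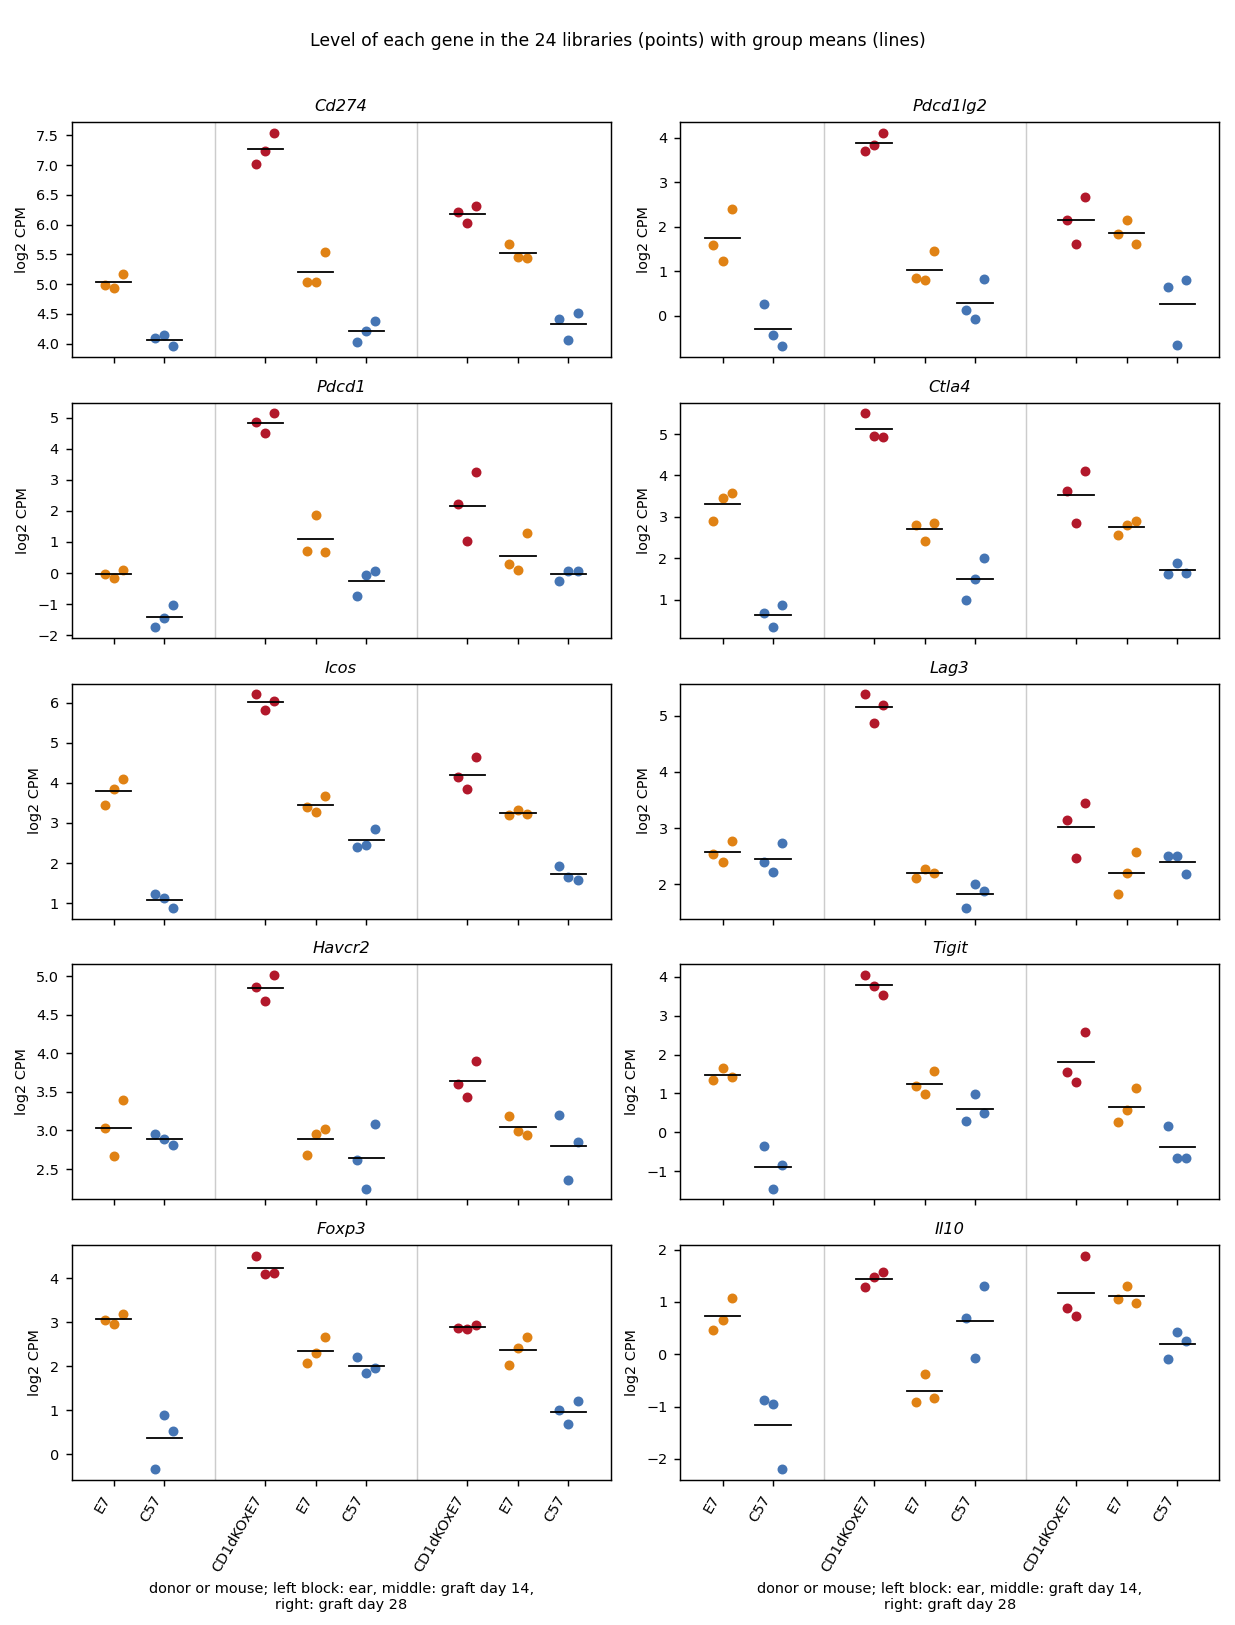
Level of each of the 10 genes in every library (points) as log2 CPM with a prior count of 2, by group, with a line at the group mean; each panel has its own axis. CD1dKOxE7 grafts at day 14 have the highest group mean for all 10 genes, and the means of Lag3 lie between 3.34 and 5.76 CPM in the groups other than CD1dKOxE7 grafts.

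Lag3 (Entrez gene 16768; chromosome 6, 124904359 to 124912434, minus strand) encodes LAG-3, an inhibitory receptor that binds MHC class II on antigen-presenting cells. Its level in ears was 5.58, 5.07 and 6.63 CPM in E7, against 5.07, 4.43 and 6.42 CPM in C57. The ears overlapped, at log2 0.11 ± 0.19 (adjusted p = 0.611), and this small difference turned negative under upper quartile scaling and without either of the ears labelled E7_8wks_290 and C57_8wks_286. Day 14 values were 41.4, 29.0 and 36.1 CPM in CD1dKOxE7 grafts, 4.12, 4.60 and 4.36 CPM in grafts from E7 donors and 2.78, 3.79 and 3.46 CPM in those from C57 donors. CD1dKOxE7 grafts lay 8.01-fold above E7 grafts (log2 3.00 ± 0.23, adjusted p = 1.25e-06), and E7 grafts just above C57 grafts without passing (log2 0.40 ± 0.26, adjusted p = 0.255). At day 28 it was 8.59, 5.35 and 10.7 CPM in CD1dKOxE7 grafts, 3.35, 4.37 and 5.75 CPM in grafts of E7 donors and 5.46, 5.45 and 4.32 CPM in grafts from C57 donors. All groups overlapped at that day. CD1dKOxE7 and E7 grafts differed by log2 0.86 ± 0.24 (adjusted p = 0.145, or 0.0463 without CD1dKOxE7 replicate 2), and E7 and C57 grafts by log2 -0.17 ± 0.25 (adjusted p = 0.626).

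Havcr2 (Entrez gene 171285; chromosome 11, 46454931 to 46481255, plus strand) encodes TIM-3, which macrophages and dendritic cells carry as well as activated T cells. Its level in ears was 7.98, 6.14 and 10.3 CPM in E7, against 7.52, 7.20 and 6.83 CPM in C57. The ears overlapped, at log2 0.19 ± 0.18 (adjusted p = 0.383), a difference that turned negative without E7_8wks_290. At day 14 it was 28.8, 25.3 and 32.2 CPM in CD1dKOxE7 grafts, 6.18, 7.56 and 7.92 CPM in grafts of E7 donors and 5.94, 4.52 and 8.23 CPM in grafts from C57 donors. CD1dKOxE7 grafts were 3.91-fold above E7 grafts (log2 1.97 ± 0.21, adjusted p = 9.57e-06), and E7 and C57 grafts overlapped (log2 0.22 ± 0.23, adjusted p = 0.478). Grafts at day 28 had 12.0, 10.6 and 14.7 CPM when labelled CD1dKOxE7, 8.93, 7.75 and 7.49 CPM when E7 and 8.95, 4.89 and 6.97 CPM when C57. CD1dKOxE7 grafts lay above E7 grafts without passing (log2 0.61 ± 0.21, adjusted p = 0.250), and E7 and C57 grafts overlapped (log2 0.21 ± 0.22, adjusted p = 0.477).

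Tigit (Entrez gene 100043314; chromosome 16, 43626137 to 43665125, minus strand) encodes a receptor of T cells and natural killer cells that binds CD155, competes with the activating receptor CD226 and is also high on regulatory T cells. It overlaps Zbtb20 and Mir568, and since the library kit does not mark strand, reads of overlapping genes may be mixed. How the counting program treated such reads is not given in the sources used here. Ears had 2.31, 2.92 and 2.46 CPM in E7, against 0.572, 0.150 and 0.338 CPM in C57. E7 ears were 7.19-fold higher without overlap (log2 2.85 ± 0.37, adjusted p = 4.43e-05). Grafts at day 14 had 16.3, 13.3 and 11.4 CPM when labelled CD1dKOxE7, 2.06, 1.75 and 2.76 CPM when E7 and 1.01, 1.75 and 1.19 CPM when C57. CD1dKOxE7 grafts were 6.16-fold above E7 grafts (log2 2.62 ± 0.33, adjusted p = 3.16e-05), and E7 and C57 grafts met at 1.75 CPM (log2 0.76 ± 0.41, adjusted p = 0.169). Day 28 values were 2.72, 2.22 and 5.73 CPM in CD1dKOxE7 grafts, 0.993, 1.27 and 2.00 CPM in grafts from E7 donors and 0.895, 0.419 and 0.418 CPM in those from C57 donors. The groups lay apart in that order, but neither step passed: CD1dKOxE7 against E7 grafts was log2 1.29 ± 0.38, adjusted p = 0.169, and E7 against C57 grafts log2 1.21 ± 0.49, adjusted p = 0.0648. The second passed without C57 replicate 1 (adjusted p = 0.0444).

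Foxp3 (Entrez gene 20371; chromosome X, 7579676 to 7595243, plus strand) encodes the transcription factor that defines regulatory T cells, and overlaps Flicr and Ccdc22, so that its counts carry the same uncertainty. Cd274 likewise overlaps Plgrkt and Gm36043. In ears Foxp3 was 8.08, 7.60 and 8.90 CPM in E7, against 0.572, 1.65 and 1.22 CPM in C57. E7 ears were 7.01-fold higher, far apart from C57 ears (log2 2.81 ± 0.26, adjusted p = 3.68e-06). Day 14 values were 22.5, 16.8 and 17.2 CPM in CD1dKOxE7 grafts, 3.96, 4.71 and 6.09 CPM in grafts from E7 donors and 4.42, 3.36 and 3.70 CPM in those from C57 donors. CD1dKOxE7 grafts were 3.76-fold above E7 grafts (log2 1.91 ± 0.19, adjusted p = 6.55e-06), whereas E7 and C57 grafts overlapped (log2 0.38 ± 0.21, adjusted p = 0.182). At day 28 it was 7.07, 6.92 and 7.47 CPM in CD1dKOxE7 grafts, 3.85, 5.07 and 6.12 CPM in grafts of E7 donors and 1.79, 1.40 and 2.09 CPM in grafts from C57 donors. E7 grafts were now 2.86-fold above C57 grafts (log2 1.52 ± 0.23, adjusted p = 0.000188), and CD1dKOxE7 grafts lay above E7 grafts without passing (log2 0.50 ± 0.20, adjusted p = 0.313). The groups at day 28 did not overlap. In bulk skin RNA, a level that differs because of the number of cells of a type and one that differs because of RNA per cell cannot be told apart.

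Il10 (Entrez gene 16153; chromosome 1, 131019845 to 131024970, plus strand) encodes interleukin-10, which regulatory T cells, other T cells and macrophages secrete. Its counts were low, with 10 or more in 14 of 24 libraries. In ears it was 1.15, 1.36 and 1.89 CPM in E7, against 0.327, 0.300 and 0 CPM in C57. E7 ears were 7.09-fold higher (log2 2.83 ± 0.56, adjusted p = 0.00103), on 4, 4 and 0 counts in the C57 ears. At day 14 it was 2.21, 2.58 and 2.74 CPM in CD1dKOxE7 grafts, 0.317, 0.548 and 0.344 CPM in grafts of E7 donors and 1.39, 0.730 and 2.27 CPM in grafts from C57 donors. Il10 was the member with the opposite direction at that day: E7 grafts lay below C57 grafts (log2 -1.80 ± 0.49, adjusted p = 0.0122), on 2, 5 and 3 counts in E7 grafts. The call was lost without C57 replicate 3, at log2 -1.34 (adjusted p = 0.0833). CD1dKOxE7 grafts were 5.84-fold above E7 grafts (log2 2.55 ± 0.45, adjusted p = 0.000505). They overlapped the C57 grafts. Macrophage and monocyte markers lay in a like order at day 14, with sums of 1289 to 1557 CPM in CD1dKOxE7 grafts, 420.3 to 688 CPM in E7 grafts and 912 to 1564 CPM in C57 grafts. Of these 12 markers, 10 were lower and 1 higher in E7 than in C57 grafts (14.4% of all genes lower, 15.8% higher). Their part in the Il10 difference was not tested. Grafts at day 28 had 1.63, 1.44 and 3.47 CPM when labelled CD1dKOxE7, 1.86, 2.25 and 1.75 CPM when E7 and 0.716, 1.12 and 0.976 CPM when C57. E7 grafts were 2.14-fold above C57 grafts (log2 1.10 ± 0.41, adjusted p = 0.0467), and CD1dKOxE7 and E7 grafts overlapped (log2 0.13 ± 0.36, adjusted p = 0.920). The macrophage and monocyte sum at day 28 was 759.8 to 1967 CPM in CD1dKOxE7 grafts, 769 to 1046 CPM in E7 grafts and 1059 to 1289 CPM in C57 grafts. The E7 against C57 call at day 28 was lost without any 1 of the 6 libraries (adjusted p from 0.0606, without C57 replicate 2, to 0.165, without C57 replicate 1). It was also lost under RLE scaling, upper quartile scaling, no count filter and DESeq2 (adjusted p 0.0534, 0.0609, 0.0773 and 0.0918).

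Per kilobase of exon, which allows genes to be set side by side, Cd274 had the highest mean level of the members in all 8 groups. It was 8.98 ± 0.77 CPM per kb in E7 ears and 4.56 ± 0.30 in C57 ears (SD, n = 3 each). In E7 ears the next were Ctla4 at 4.24 ± 0.98 and Icos at 4.07 ± 0.92 CPM per kb, which did not differ beyond their spread. In C57 ears the next were Havcr2 at 2.64 ± 0.13 and Lag3 at 2.52 ± 0.48 CPM per kb, with Ctla4 at 0.581 ± 0.12, Icos at 0.554 ± 0.074 and Foxp3 at 0.250 ± 0.12. Pdcd1 was the lowest in ears of both genotypes, at 0.398 ± 0.044 CPM per kb in E7 and 0.0867 ± 0.050 in C57. In CD1dKOxE7 grafts at day 14, Cd274 stood at 42.9 ± 8.1 CPM per kb and Icos at 19.0 ± 2.6. Lag3 at 16.8 ± 2.9, Ctla4 at 15.2 ± 3.6, Pdcd1 at 14.9 ± 3.2 and Tigit at 14.9 ± 2.7 CPM per kb lay within each other's spread there. Pdcd1 was 8th of 10 in E7 grafts at day 14, at 1.07 ± 0.60 CPM per kb.

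Between days 14 and 28, most members fell in the CD1dKOxE7 grafts and few moved in the others. In CD1dKOxE7 grafts 9 of 10 were lower at day 28 (11.8% of all genes lower). Lag3 fell by 2.10 ± 0.21 on the log2 scale (adjusted p = 3.3e-05), Pdcd1 by 2.47 ± 0.41 (adjusted p = 0.000863), and Cd274 least, by 1.08 ± 0.16 (adjusted p = 0.000337). The member that did not pass was Il10. All 3 libraries of day 28 lay below all 3 of day 14 for each of the 9. The share of all genes that lay apart in this way was not counted. The 9 also passed without CD1dKOxE7 replicate 3 of day 28, where 5142 genes passed in either direction. In E7 grafts 1 of 10 was higher at day 28, Il10, at log2 2.21 ± 0.47, adjusted p = 0.00611 (7.68% of all genes higher). 3 of 12 macrophage and monocyte markers were also higher in E7 grafts at day 28, and none was lower. In C57 grafts 2 of 10 were lower at day 28 (14.2% of all genes lower). Foxp3 fell by 1.10 ± 0.24 on the log2 scale (adjusted p = 0.00413) and Icos by 0.87 ± 0.23 (adjusted p = 0.0135, or 0.0662 without C57 replicate 3 of day 14). The CD1dKOxE7 against E7 difference was itself smaller at day 28 than at day 14 for 8 of 10 members, where 6.31% of all genes had a lower difference. The change was log2 -2.15 ± 0.33, adjusted p = 0.00120 for Lag3, -1.40 ± 0.23, adjusted p = 0.00163 for Cd274, -1.57 ± 0.26, adjusted p = 0.00174 for Icos and -1.41 ± 0.28, adjusted p = 0.00521 for Foxp3. Pdcd1lg2, Ctla4, Havcr2 and Il10 were the other members that passed, and Pdcd1 (adjusted p = 0.102) and Tigit (adjusted p = 0.1002) did not. Without CD1dKOxE7 replicate 3 of day 28 all 10 passed, while the number of all genes that passed in either direction also rose, to 3956. The E7 against C57 difference in grafts did not pass between the days for any of 10 members with edgeR or DESeq2, where 0.167% of all genes passed. With edgeR 3 members (Foxp3, Icos and Il10) had an unadjusted p under 0.05, and the share of all genes at that p was not counted.

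The E7 against C57 difference was larger in ears than in grafts for several members. Subtracting the ear difference from that in grafts, 5 of 10 members were lower at day 14, where 8.61% of all genes were lower. They were Foxp3 (log2 -2.44 ± 0.35, adjusted p = 0.000117), Icos (-1.98 ± 0.31, adjusted p = 0.000284), Il10 (-4.62 ± 0.78, adjusted p = 0.000515), Ctla4 (-1.66 ± 0.46, adjusted p = 0.0212) and Tigit (-2.09 ± 0.61, adjusted p = 0.0286). The first 3 kept their call without any single library. Ctla4 lost it without C57_8wks_286, E7_8wks_290, C57 graft replicate 3 or E7 graft replicate 2 (adjusted p 0.0529 to 0.113), and Tigit without any 1 of 7 libraries (C57_8wks_286, C57_8wks_287, E7_8wks_289, C57 graft replicates 2 and 3, and E7 graft replicates 1 and 2; adjusted p 0.0511 to 0.0802). At day 28, 3 of 10 were lower, where 5.13% of all genes were lower. They were Ctla4 (log2 -1.76 ± 0.45, adjusted p = 0.0204), Icos (-1.32 ± 0.33, adjusted p = 0.0180) and Foxp3 (-1.31 ± 0.38, adjusted p = 0.0397). Foxp3 lost the call without any 1 of 9 of the 12 libraries, all but C57_8wks_286, C57 graft replicate 2 and E7 graft replicate 3 (adjusted p 0.0529 to 0.107), and with no count filter (adjusted p = 0.0563). Ctla4 lost it without C57_8wks_286, E7_8wks_290, C57 graft replicate 2 or E7 graft replicate 1 (adjusted p 0.0516 to 0.0564), and Icos without C57_8wks_287 or C57 graft replicate 1 (adjusted p 0.0581 and 0.0750). Graft and ear libraries carried different library codes, which were read as different flow cells.

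Within a genotype, grafted and ungrafted skin differed as follows. In C57 skin at day 14, 5 of 10 members were higher in grafts than in ears and 1 was lower (30.6% of all genes higher, 22.0% lower). Foxp3 (log2 1.71 ± 0.27, adjusted p = 3.1e-05), Icos (1.61 ± 0.25, adjusted p = 1.86e-05), Il10 (2.82 ± 0.57, adjusted p = 0.000330), Tigit (1.86 ± 0.50, adjusted p = 0.00392) and Ctla4 (1.01 ± 0.37, adjusted p = 0.0267) were higher, and Lag3 (-0.67 ± 0.25, adjusted p = 0.0266) was lower. Ctla4 lost its call without C57_8wks_285 or C57_8wks_286 or C57 graft replicate 3 (adjusted p 0.0513, 0.0894 and 0.257), and Lag3 without C57_8wks_287 or C57 graft replicate 1 (adjusted p 0.124 and 0.0730). In C57 skin at day 28, 3 of 10 were higher in grafts (21.3% of all genes higher). Il10 (log2 2.12 ± 0.61, adjusted p = 0.00982) was among them, with Ctla4 (1.17 ± 0.36, adjusted p = 0.0139), lost without C57_8wks_286 (adjusted p = 0.0561), and Icos (0.73 ± 0.27, adjusted p = 0.0349), lost without C57_8wks_286 or C57_8wks_287 or C57 graft replicate 1 or 2 (adjusted p 0.0530 to 0.165). In E7 skin at day 14, 1 of 10 was higher in grafts and 2 were lower (21.9% of all genes higher, 21.3% lower). Il10 (log2 -1.80 ± 0.54, adjusted p = 0.0108) and Foxp3 (-0.72 ± 0.22, adjusted p = 0.0123, or adjusted p = 0.0583 without E7 graft replicate 1) were lower. Pdcd1 (log2 1.45 ± 0.56, adjusted p = 0.0406) was higher, a call lost without any 1 of the E7 ears or E7 graft replicate 2 (adjusted p 0.0719 to 0.325) and with no count filter (adjusted p = 0.0544). In E7 skin at day 28, 1 of 10 was higher in grafts and 2 were lower (23.8% of all genes higher, 24.2% lower). Cd274 (log2 0.50 ± 0.15, adjusted p = 0.00941) was higher, and Foxp3 (-0.71 ± 0.22, adjusted p = 0.0127) and Icos (-0.59 ± 0.20, adjusted p = 0.0174) were lower. Without E7 graft replicate 1 none of these 3 passed (adjusted p 0.0523, 0.0784 and 0.0546), and Icos did not without E7_8wks_290 either (adjusted p = 0.107).

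Markers of other cell types moved with the members in some comparisons and not in others. In ears, the 16 T cell markers summed to 200.5 to 248 CPM in E7 and 210.0 to 241 CPM in C57. Of 15 tested, 6 were higher and 4 lower in E7 ears, shares near those over all genes (32.6% higher and 32.7% lower), among them Cd8a (log2 3.67 ± 0.54) and Cd5 (1.40 ± 0.16), a co-receptor and a surface antigen of T cells, which were higher, and the antigen receptor chain Cd247 (-0.98 ± 0.14), which was lower. Thy1, which cells other than T cells in skin also make, was 55.7 to 63.4% of the T cell marker sum in E7 ears. In C57 ears it was 67.3 to 69.2%. The 4 CD3 chain genes among the 16 markers summed to 19.4 to 27.2 CPM in E7 and 34.7 to 40.4 CPM in C57 ears. Neutrophil markers summed to 112 to 358 CPM in E7 ears and 6.83 to 16.0 CPM in C57 ears, and dendritic and Langerhans cell markers to 94.7 to 106 CPM in E7 ears and 70.5 to 71.7 CPM in C57 ears. Of the neutrophil markers, S100a8 and S100a9 had 27176 and 33136 counts over 24 libraries, against 4508 for Csf3r and 3342 for Cxcr2. Ly6g and Retnlg were under 10 counts in all 24 libraries. Which cells made S100a8 and S100a9 was not tested. Sums of fibroblast, endothelial and mast cell markers lay lower in E7 ears, without overlap. Fibroblast markers summed to 2249.8 to 4395 CPM in E7 ears and 7986 to 8866 CPM in C57 ears, endothelial cell markers to 87.9 to 107 CPM in E7 ears and 184 to 207 CPM in C57 ears, and mast cell markers to 114 to 183 CPM in E7 ears and 319.6 to 346 CPM in C57 ears. Between E7 and C57 grafts, T cell markers summed to 206 to 236 CPM in E7 and 253 to 301 CPM in C57 at day 14, and to 254 to 357 CPM in E7 and 324 to 329.9 CPM in C57 at day 28. Of 16, 4 were higher and 1 lower in E7 grafts at day 14 (15.8% of all genes higher, 14.4% lower). At day 28, 4 were higher and none lower (20.7% of all genes higher, 14.7% lower). Thy1 was 55.8 to 63.7% of the day 14 sum in E7 grafts and 75.4 to 77.6% in C57 grafts. The 4 CD3 chain genes summed to 17.4 to 24.4 CPM in E7 and 14.6 to 21.5 CPM in C57 grafts at day 14. At day 28 they summed to 18.4 to 24.5 CPM in E7 and 22.0 to 34.9 CPM in C57 grafts. Fibroblast markers summed to 16080.3 to 25471 CPM in E7 and 30444 to 45151 CPM in C57 grafts at day 14, and to 12660.0 to 18675 CPM in E7 and 19675 to 36933 CPM in C57 grafts at day 28. In CD1dKOxE7 against E7 grafts at day 14, T cell markers summed to 699 to 789 CPM in CD1dKOxE7 grafts, against 206 to 236 CPM in E7 grafts. All 16 were higher (15.1% of all genes higher). Natural killer cell markers summed to 119 to 150.5 CPM there, against 17.3 to 22.5 CPM in E7 grafts. Macrophage markers summed to 1289 to 1557 CPM, against 420.3 to 688 CPM, and neutrophil markers to 1213 to 2374 CPM, against 68.4 to 293 CPM in E7 grafts. Dendritic and Langerhans cell markers (214 to 271 against 86.4 to 110 CPM) were higher too. So were B and plasma (13.2 to 25.3 against 5.07 to 5.70 CPM) and endothelial cell markers (299.5 to 324 against 277 to 291 CPM). Sums of mast cell (107 to 125 against 168 to 205 CPM), fibroblast (11806 to 13816 against 16080 to 25471 CPM) and keratinocyte markers were lower. Several defining markers were at 0 in some libraries: Ly6g of neutrophils in 16 libraries, Ms4a1 of B cells in 8 and Ncr1 of natural killer cells in 3. At day 28, T cell markers summed to 235 to 456 CPM in CD1dKOxE7 grafts, against 254 to 357 CPM in E7 grafts. The part of these cell types in the members' differences was not tested.

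Set against T cell transcripts, the members differed in whether the gap between groups remained. The 4 CD3 chain genes (Cd3d, Cd3e, Cd3g and Cd247), parts of the antigen receptor of every T cell, summed to 23.3 ± 3.89 CPM in E7 ears and 36.9 ± 3.03 CPM in C57 ears (SD, n = 3 each). They summed to 118 ± 13.3 CPM in CD1dKOxE7 grafts at day 14, 20.2 ± 3.71 CPM in E7 grafts of that day and 18.7 ± 3.63 CPM in C57 grafts. In ears, where CD3 transcripts were lower in E7, Foxp3 per 100 CPM of CD3 was 35.5 ± 3.32 in E7 and 3.12 ± 1.58 in C57, a ratio of 11.4. The E7 to C57 ratio was 11.8 for Ctla4 and 11.6 for Icos. The groups did not overlap for any of the 3, and the exact two-sided permutation p was 0.1, the smallest that 3 against 3 allows. With the 16 T cell markers as denominator, the ear ratio was smaller, 7.36 for Foxp3, 7.64 for Ctla4 and 7.57 for Icos, also without overlap. Lag3 and Havcr2, which did not pass in level in ears, were apart per CD3 transcript (ratios 1.73 and 1.77). With the 16 markers they overlapped (1.14 and 1.17). In CD1dKOxE7 against E7 grafts at day 14, Foxp3 per 100 CPM of CD3 was 16.2 ± 4.02, against 24.8 ± 6.75, a ratio of 0.654 with overlap (exact permutation p = 0.200). Ctla4 (ratio 0.940), Icos (1.01), Tigit (1.05), Il10 (1.09), Pdcd1lg2 (1.30) and Cd274 (0.693) also overlapped per CD3 transcript. Pdcd1 per 100 CPM of CD3 was 24.3 ± 3.70 in CD1dKOxE7 grafts and 9.80 ± 3.58 in E7 grafts, a ratio of 2.48 without overlap (exact permutation p = 0.1). Lag3 was apart too, at 30.3 ± 6.66 in CD1dKOxE7 grafts and 21.9 ± 2.65 in E7 grafts. Havcr2 was the member lower and apart, at 24.4 ± 1.89 in CD1dKOxE7 grafts and 36.2 ± 5.60 in E7 grafts, a ratio of 0.675 (exact permutation p = 0.1). In E7 against C57 grafts at day 28, the ratio per CD3 transcript was 3.42 for Foxp3, 2.69 for Ctla4 and 3.80 for Icos. Il10 per CD3 transcript had a ratio of 0.259 in E7 against C57 grafts at day 14 and 2.65 at day 28, without overlap at either day. With the 16 T cell markers as denominator, the CD1dKOxE7 against E7 ratio at day 14 was above 1 for all 10 members, from 1.18 for Foxp3 to 4.29 for Pdcd1. It was 1.71 for Ctla4, 1.84 for Icos, 1.92 for Tigit, 1.91 for Il10, 2.38 for Pdcd1lg2 and 2.49 for Lag3, all apart. Havcr2 was apart in the other direction than per CD3 transcript, at 1.22, and Cd274 overlapped, at 1.27. That sum rested on Thy1, which cells other than T cells in skin also make: Thy1 was 23.7 to 28.4% of it in CD1dKOxE7 grafts at day 14 and 55.8 to 63.7% in E7 grafts. The CD3 denominator was chosen after seeing the data, and whether cells other than T cells added to the CD3 sum was not tested.

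**Figure D3:**
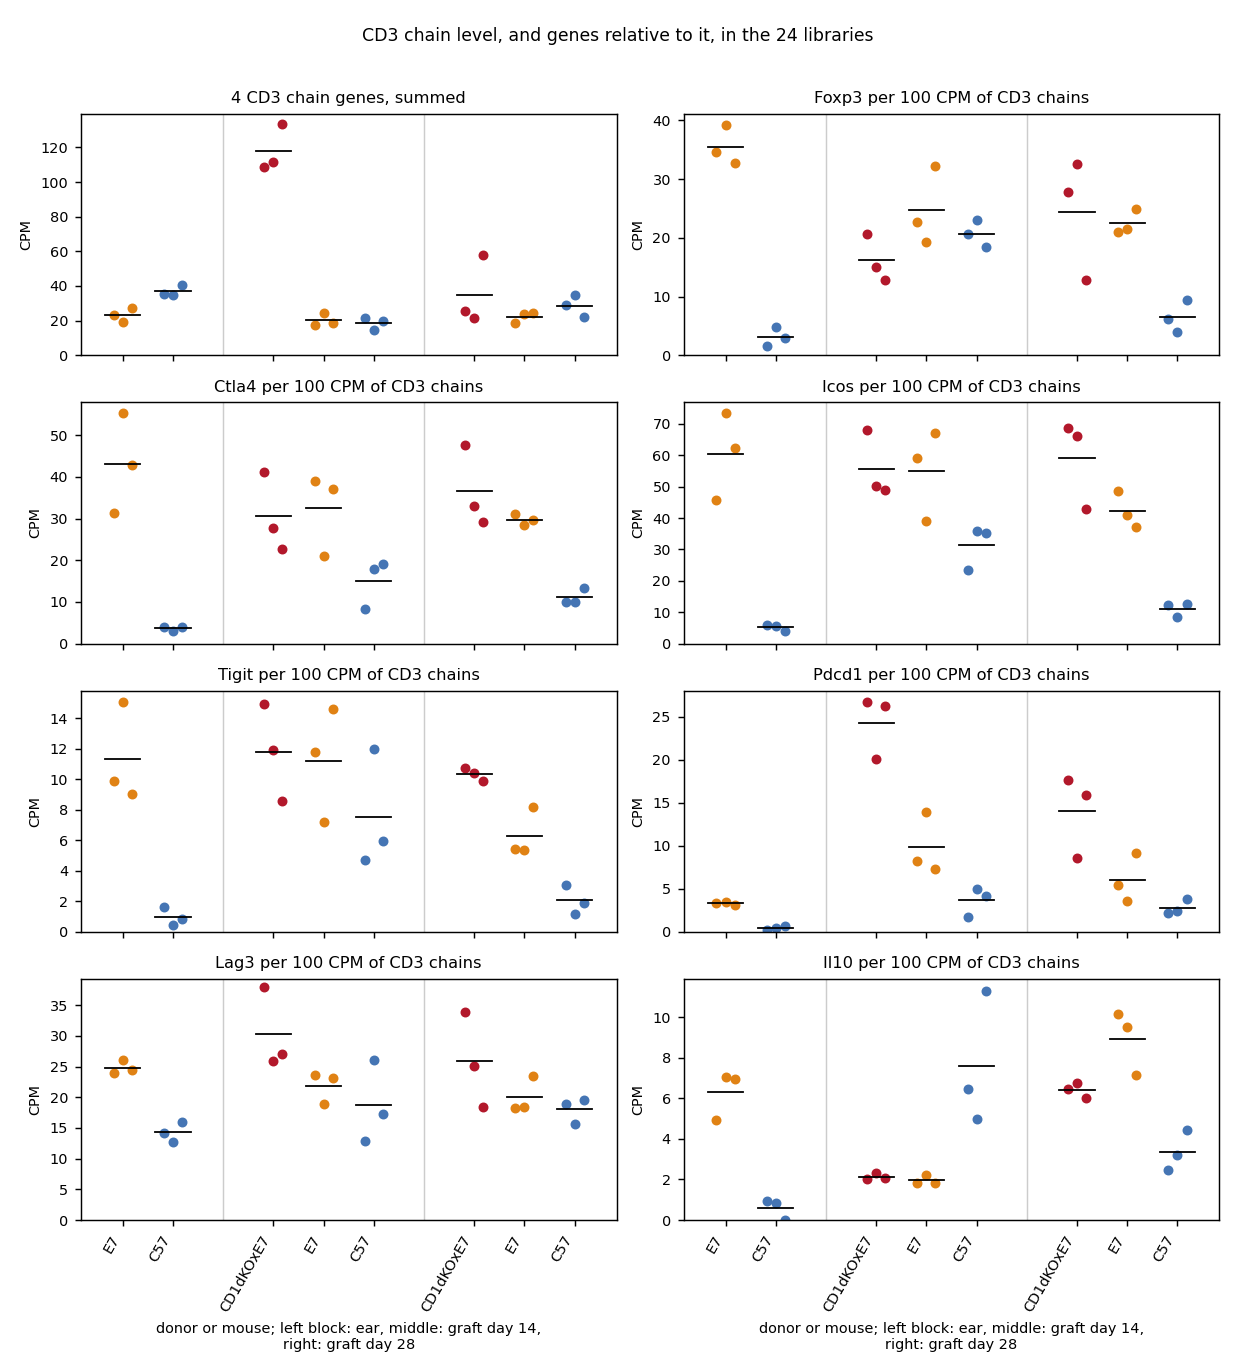
Summed CPM of the 4 CD3 chain genes, and 7 members per 100 CPM of that sum, in every library (points) by group, with a line at the group mean. E7 ears lie above C57 ears for Foxp3, Ctla4 and Icos, and CD1dKOxE7 grafts at day 14 lie above E7 grafts for Pdcd1 and Lag3 but not for Foxp3, Ctla4 and Icos.

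Other genes of the same pathways were described from lists. In ears, of 20 further regulatory T cell-associated genes tested, 11 were higher and 5 lower in E7, where 32.6% of all genes were higher and 32.7% lower (median log2 0.61, against 0.00 over all genes). Areg, a growth factor of tissue regulatory T cells and keratinocytes, was higher by log2 6.43 ± 0.44, as was the transcription factor gene Prdm1 (1.75 ± 0.12), whereas the surface receptor gene Nrp1 was lower (-1.12 ± 0.08). Of 9 other CD28 and B7 family genes, 1 was higher, Cd80, the ligand of CTLA-4 and CD28 (1.86 ± 0.25), and 3 were lower, shares near or below those over all genes. The regulatory T cell-associated genes had 8 higher and 5 lower of 20 in E7 grafts at day 14 (15.8% and 14.4% of all genes), and 8 higher and 2 lower at day 28 (20.7% and 14.7% of all genes). At day 28 the interleukin-2 receptor chain Il2ra (1.39 ± 0.24) and the costimulatory receptor genes Tnfrsf4 (1.16 ± 0.17) and Tnfrsf18 (1.09 ± 0.15) were among them. Of 12 ligands and partner receptors of LAG-3, TIM-3 and TIGIT, 4 were higher and 3 lower in E7 ears, 1 and 1 in E7 grafts at day 14, and 1 and 2 at day 28, shares near or below those over all genes. The TIM-3 ligand gene Lgals9 was higher in E7 ears (0.52 ± 0.07) and in E7 grafts (0.75 ± 0.15 at day 14 and 0.93 ± 0.15 at day 28), and Nectin3 was lower in all 3 (-2.01 ± 0.10, -0.54 ± 0.18 and -0.85 ± 0.19).

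In CD1dKOxE7 against E7 grafts at day 14, most genes of these lists were higher, where 15.1% of all genes were. Of the other regulatory T cell-associated genes 13 of 20 were higher and 1 lower, led by Il2ra (log2 2.48 ± 0.20), Tnfrsf4 (1.61 ± 0.15) and Ccr8, a homing receptor of skin T cells (2.60 ± 0.29). Of the other CD28 and B7 family genes 9 of 10 were higher, among them Cd28 (2.72 ± 0.29), its ligand gene Cd86 (1.61 ± 0.18) and the receptor gene Cd160 (3.28 ± 0.28). The same held for all 6 genes of the interleukin-10 receptor and its signal, with the receptor chain gene Il10ra at log2 2.13 ± 0.23. Of the ligands and partner receptors of LAG-3, TIM-3 and TIGIT, 6 of 12 were higher, and the MHC class II genes H2-Ab1, H2-Aa and H2-Eb1, which encode the LAG-3 ligand, rose by log2 2.15 ± 0.21, 2.12 ± 0.21 and 2.18 ± 0.22. Of 10 transcription factors tied to T cell activation and exhaustion, 6 were higher, with Tbx21 (4.41 ± 0.51) and Eomes (2.94 ± 0.44) of cytotoxic lymphocytes and Tcf7 (1.27 ± 0.17) of less differentiated T cells. The members had a median of log2 2.56, the T cell markers of 2.56, and all genes tested of -0.03. At day 28 the medians were 0.75 for the members, 0.71 for the T cell markers and 0.00 for all genes.

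Likeness of pattern was described by Pearson's r of mean log2 CPM over the 8 groups, among 16393 genes. No test was made, since groups share donor genotypes and, as the library codes were read, sequencing lanes. Cd274 was most like Socs1 (r = 0.996), a brake on cytokine signalling that interferon-gamma induces, followed by Il24 (0.993) and Psme1 (0.992). Icos was most like Olfr56 (0.998), Cd6 (0.995) and Rac1 (0.992), and Tigit like Rac1 (0.995), Cd5 (0.993) and Ikzf3 (0.990). Pdcd1lg2 was most like Scimp (0.989), Ccr8 (0.987) and Cd2 (0.985), and Lag3 like Klrb1b (0.990), Cd3d (0.986) and the T cell receptor segment Trbj1-5 (0.984). Ctla4 was most like Ccr8 (0.989), Ubash3a (0.983) and Cxcl16 (0.983), and Havcr2 like Trbj1-5 (0.994), Trbv12-2 (0.994) and Zfp831 (0.993). Foxp3 was most like Chil1 (0.984), Chmp4b (0.983) and Mrpl33 (0.980). Il10 had the weakest likeness, to Osbpl8 (0.960), Ccl8 (0.946) and Ube2z (0.938), and Pdcd1 had too few libraries with 10 counts to be compared.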

How the data were processed

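The values analysed were the read counts per gene that the authors deposited, 1 column per library. The submitters' processing notes name the mm10 genome and Trimmomatic for every library, with bcl2fastq 1.8.4 for ears and FastQC for grafts. The aligner, counting program, annotation and strand setting are not given in the sources used here. Per the labels' protocols, RNA was extracted with Trizol and RNeasy and libraries were made with the TruSeq RNA v2 kit, which does not mark strand. Libraries held 6550011 to 13814448 counts. Replicates differed by more than counting error (chi-square per degree of freedom 3.78 to 31.5 between pairs), so precision rested on the spread between libraries as well as on depth.

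Members were matched by symbol, and of 27180 rows 25276 matched a symbol. The members and the pathway and marker lists were chosen with earlier results of these data known. Of each list, at most 3 genes past the threshold with the smallest adjusted p are named per comparison. The interferon-gamma signalling list is not reported here. Counts were tested with edgeR 4.0.16 (R 4.3.3): filterByExpr with a minimum count of 10 and a total of 15, trimmed mean of M values, robust quasi-likelihood F tests, and Benjamini-Hochberg adjustment over all genes. Separate fits held the 6 ear libraries (15720 genes), the 18 graft libraries (16189 genes) and, for grafts against ears, all 24 (16612 genes). The SE is the log2 fold change over the root of F. Alternatives were RLE and upper quartile scaling, no count filter, DESeq2 1.42.0, other libraries in the fit, a replicate block and leaving out each library. The scripts were tested on simulated counts. Promoters came from RefSeq tables for 7 of 10 members.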

Additional observations from a re-analysis of the deposited data

Results flagged for a closer look

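Differences between groups that themselves changed with time or with grafting, by edgeR's interaction terms, are given here by gene. The CD1dKOxE7 minus E7 difference was lower at day 28 than at day 14 by log2 -2.60 for Pdcd1lg2, -2.41 for Il10, -2.15 for Lag3, -1.62 for Ctla4, -1.57 for Icos, -1.41 for Foxp3, -1.40 for Cd274 and -1.36 for Havcr2 (adjusted p 0.00120 to 0.0151). The E7 minus C57 difference was lower in grafts at day 14 than in ears by log2 -4.62 for Il10, -2.44 for Foxp3, -2.09 for Tigit, -1.98 for Icos and -1.66 for Ctla4 (adjusted p 0.000117 to 0.0286). It was lower in grafts at day 28 than in ears by log2 -1.76 for Ctla4, -1.32 for Icos and -1.31 for Foxp3 (adjusted p 0.0180 to 0.0397). Il10 rested on 2, 5 and 3 counts in the 3 E7 grafts at day 14 and on 4, 4 and 0 counts in the 3 C57 ears.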

How the results depend on the processing

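All 10 members stayed higher in CD1dKOxE7 than in E7 grafts at day 14, and the same 7 stayed higher in E7 than in C57 ears, under every alternative run, with Pdcd1 as an eighth in ears where it was tested (no count filter, DESeq2 and 1 fit of 24 libraries). CD1dKOxE7 against E7 grafts at day 28, with 34 genes and 1 member, gave 242 genes and 3 members with DESeq2. With only the groups compared it gave 3 genes and 0 members, and without 1 library 4 to 304 genes and 0 to 3 members. In the fit of 18 libraries 8 members had an unadjusted p under 0.05, and the share of all genes at that p was not counted. The change of the E7 difference between days, with 27 genes, gave 156 with DESeq2, 55 with only the groups compared and 12 to 72 without 1 library. With only the groups compared, CD1dKOxE7 grafts at day 28 against day 14 gave 1308 genes (3660 otherwise) and the change of the CD1dKOxE7 minus E7 difference 1314 (2080 otherwise). The cause of these shifts was not tested, beyond the fewer libraries in such fits. Leaving out 1 library gave 3043 to 4488 genes for E7 against C57 grafts at day 14, 1211 to 2753 genes and 1 to 2 members for E7 grafts between days, 2022 to 5142 genes for CD1dKOxE7 grafts between days and 1099 to 3956 for the change of the CD1dKOxE7 minus E7 difference. It gave 1394 to 1882 genes and 3 to 5 members for the E7 difference in day 14 grafts minus ears, and 743 to 1097 genes and 1 to 3 members for that in day 28 grafts minus ears. It gave 1 to 2 members for C57 grafts between days, 0 to 4 members for E7 grafts at day 28 against ears, 3 to 4 for E7 against C57 grafts at day 14, and 2 to 4 for E7 grafts at day 14 against ears. Without CD1dKOxE7 replicate 3 of day 28 there were 304 genes and 1 member against E7 grafts, and 5142 genes and 9 members between days.

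Signs turned for small differences: Lag3 in ears (0.11) was -0.0072 under upper quartile scaling and -0.0030 to 0.28 without 1 library, Havcr2 in ears (0.19) was -0.023 to 0.35, Lag3 in E7 against C57 grafts at day 28 (-0.17) was -0.39 to 0.0085, and Il10 in CD1dKOxE7 against E7 grafts at day 28 (0.13) was -0.34 to 0.35. Per T cell transcript, CD1dKOxE7 over E7 grafts at day 14 turned from above 1 with 16 markers to below 1 with the 4 CD3 chains for Foxp3 (0.654), Ctla4 (0.940), Havcr2 (0.675) and Cd274 (0.693). The ratio fell by over 1.5 times for all 10, which share the same denominators, so this is not 10 separate results. Upper quartile scaling moved the share of called genes that were higher to 39.1% in ears (50% otherwise), 47.9% in E7 against C57 grafts at day 28 (58.4%), 52.2% in C57 grafts between days (37.1%), 55.2% in the E7 difference of day 14 grafts minus ears (31.8%) and 49% in that of day 28 grafts minus ears (30.9%). It moved the median of all genes in ears to log2 -0.118 from 0.00245. Leaving out 1 library ended 59 single-gene calls and made 3, with 581 unchanged in direction and side of the threshold. Outside the comparisons between donors only members that had passed were followed, so new calls there were not counted.

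No clear pairing of libraries by the replicate numbers of the graft labels was seen. Same-numbered libraries had residual correlations from -0.348 to 0.290, 10 of 45 above 0.1, and 7 of 18 libraries were closest to their own number. With 3 libraries per group, this check cannot exclude pairing. With the replicate block, CD1dKOxE7 against E7 grafts at day 28 gave 65 genes, and the member calls were those without it but for Pdcd1 in E7 against C57 grafts at day 14 (adjusted p = 0.0430). Ears of the 2 genotypes share no replicate numbers, so no block was fitted there. Depth limits Pdcd1, Il10 and Tigit most, with 10 or more counts in 9, 14 and 16 of 24 libraries.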
